A study of Mus musculus with 6 samples.

Results

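A set of 39 genes named for sequence-specific transcription factors outside the large Zfp and Zbtb zinc finger families was examined among the 2652 genes listed for METTL3-RIP-seq of mouse NK cells. The members were taken by gene symbol alone, with a pattern of family names such as Nfkb, Fox, Smad, Nr, E2f, Elf, Prdm and Srebf, and this pattern uses no measured value. To find the transcripts that METTL3 binds, the study sequenced RNA pulled down with an antibody to METTL3 (METTL3-RIP, 3 libraries) and RNA of lysate kept before the pull-down (input, 3 libraries). All 6 libraries came from sorted splenic NK cells of wild-type C57BL/6 mice that had received an IL-15 expression plasmid to expand these cells, so the RNA is that of NK cells under raised IL-15. No mock immunoprecipitation was analysed here, nothing states whether replicates came from separate animals, and p-values therefore measure the spread between these libraries, which may be technical. Values are RPKM, the reads of a gene per kilobase of exon and per megaread of the library. All 2652 genes had a higher mean in METTL3-RIP than in input, since the table lists genes that its authors chose for that, so the direction of that difference is fixed for every gene described here.

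METTL3 is the methyltransferase that makes most N6-methyladenosine (m6A) of messenger RNA, with GGACT a common form of the short sequence around the modified adenosine. Sequence-specific transcription factors bind short DNA motifs and set which genes a cell transcribes, and in NK cells they govern maturation, the answer to cytokines and the arming of the cell with killing proteins. Many of their messages are short-lived and carry long 3′ UTRs, and m6A is known to affect the turnover and translation of such RNA.

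Several members carried the name of a factor without being one. Nfkbie and Nfkbid encode IκB proteins, which bind NF-κB subunits and not DNA. Hif1an encodes the asparagine hydroxylase that restrains HIF, Mybbp1a a nucleolar protein that binds Myb, Tcf20 a chromatin-associated coregulator unrelated to the TCF and LEF factors of Wnt signalling, and Smad7 the inhibitory SMAD of the TGF-β pathway. Bach2os is a noncoding RNA transcribed opposite to Bach2. These 7 were kept because the pattern of names took them. The labelled cell type could not be checked, since 0 of the 12 NK cell markers and none of the markers of T cells, B cells, myeloid cells, erythroid cells and platelets were among the listed genes.

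Of 268 protein-coding genes in GENCODE M21 whose symbols fit the pattern, 38 were in the table (14.2%), beside 1903 of 21894 protein-coding genes in all (8.69%). Both SREBP genes and both BACH genes were listed. The NF-κB group had 4 of 11 annotated genes in the table, the nuclear receptors caught by the pattern 4 of 22, the SMAD genes 2 of 8 and the forkhead genes 3 of 44. No gene of the Ikaros (5 annotated), IRF (9), GATA (6), ZEB (2) or CREB and ATF (14) families was in the table, nor were Runx3, Tbx21 and Eomes, and they were not analysed here. Exon length moved with presence in the table. Listed genes with a factor name had a median of 6618 nt of exon and unlisted ones 4260.5 nt, and the listed share of factor genes went from 0 of 14 in the shortest of 5 length classes of equal size to 20 of 77 (25.97%) in the longest, where 23.4% of all coding genes were listed. With the shares of all coding genes in each class and the lengths of the factor genes, 11.4% of the factor genes would be in the table. The part of length in the listing was not tested.

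**Figure D1:**
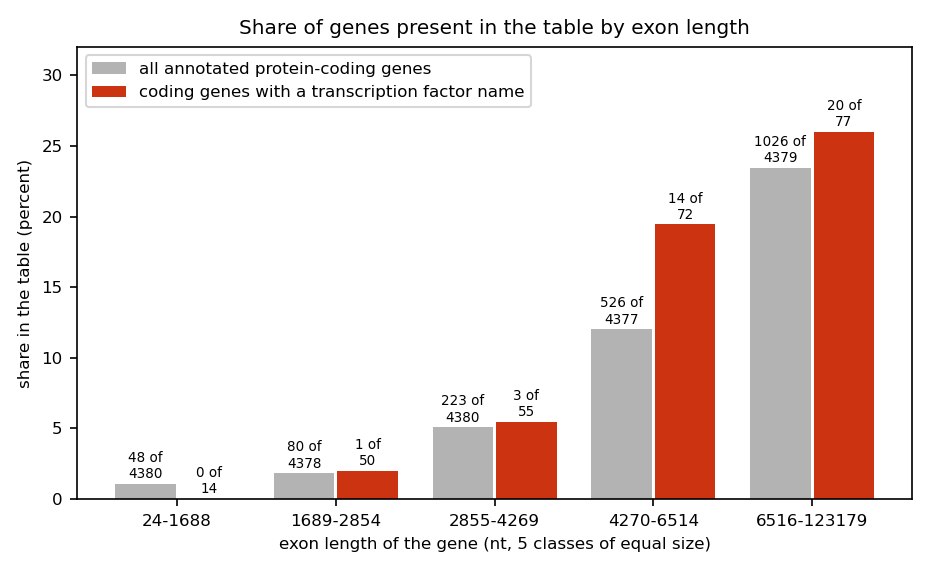
Share of annotated protein-coding genes present in the table, in percent, by 5 classes of exon length in nt, for all coding genes (grey) and for coding genes whose symbol fits the pattern of factor names (red), with the counts above each bar. Both shares rose with length, and the widest gap was in the second longest class, with 19.4% of factor genes and 12.02% of all coding genes.

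The sequence GGACT, searched on the transcribed strand, was found in the longest complete coding transcript of each of the 38 coding members, in 97.1% of such transcripts of listed coding genes and in 87.6% of those of all coding genes. Its density was close to that of other genes, with a median of 1.05 copies per kb over the members, 1.13 over listed coding genes and 1.01 over all coding genes. The shape of the transcript differed more. The median 3′ UTR was 3314.5 nt in the members, 1458 nt in listed coding genes and 874 nt in all coding genes, whereas the median coding sequence of the members, 2187 nt, was below the 2748 nt of listed coding genes. The Zfp and Zbtb genes of the table had a median 3′ UTR of 2434.5 nt. The next windows show, for members on which the later comparisons turn, the copy of GGACT nearest to the stop codon whose window lies within a single exon. Capitals mark GGACT, sequences are from the GRCm38 genome and read 5′ to 3′ along the transcript, and coordinates are GRCm38.
Elf4, chrX:48414594-48414618, minus strand, 3′ UTR: attttcatgtGGACTtaagtaagag
Elk4, chr1:132023655-132023679, plus strand, 3′ UTR: gtgcagttgtGGACTgagagaccaa
Mxd1, chr6:86651487-86651511, minus strand, coding: ggtgccgagaGGACTcggatggaca
Tcf20, chr15:82809249-82809273, minus strand, 3′ UTR: actagaccctGGACTgaaagagtag
Smad3, chr9:63648765-63648789, minus strand, 3′ UTR: gatggtctgtGGACTgctgcttcag
Foxo3, chr10:42196757-42196781, minus strand, coding: aaaccctctcGGACTctctctcagg
Klf13, chr7:63890556-63890580, minus strand, 3′ UTR: acatcccacaGGACTgatggtggca
Nfkb2, chr19:46311582-46311606, plus strand, coding: tggctggtggGGACTtggtgggtct

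In Elf4 and Elk4 this copy lay 57 and 16 nt after the first base of the stop codon. The copies shown for Mxd1, Foxo3 and Nfkb2 lay in coding sequence, upstream of it. Nr4a2, the member furthest above the listed genes, had 1 copy of GGACT in its transcript, and no window within a single exon. The values are sums over whole genes and do not place METTL3 on any of these copies. A match to GGACT is a description of sequence and not a measured m6A site.

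Library totals recovered from the steps of the values were 9401509 to 11809744 reads in METTL3-RIP and 14710607 to 15992386 reads in input. A member had a median of 328 to 361 reads in a METTL3-RIP library and of 33 to 48 in an input library, so the input sets the precision of most folds. The members together took up 0.238% ± 0.0191 (SD, n = 3) of all METTL3-RIP reads and 0.0201% ± 0.00191 (SD, n = 3) of all input reads. Of the reads of listed genes alone, their share was lower in METTL3-RIP (1.65% to 1.66%) than in input (2.04% to 2.19%). Whether a low input value stands for few cells with the RNA or for little RNA per cell cannot be told apart in such bulk libraries. Read numbers are less certain for 7 members whose exon length in the annotation did not give whole reads (Nfkb2, Nfkbie, Tcf20, Srebf2, Nr3c1, Nfic and Prdm15).

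All 39 members were higher in each METTL3-RIP library than in each input library, as were 2647 of the 2652 listed genes (99.8%). All 39 also passed the limma test on the deposited scaling, as did all 2652 listed genes (100%), which the choice of the table fixes. The ratio of the mean RPKM in METTL3-RIP to that in input ran from 9.37 in Elf4 to 42.4 in Sox6, with a median of 13.1 beside 14.4 over the 2487 listed genes with any input signal and 13.1 over the coding ones. The members were more abundant than most of the table. Their median level was 6.19 RPKM in METTL3-RIP and 0.517 RPKM in input, against 3.04 and 0.1904 RPKM over all listed genes, and 27 of the 39 lay above the METTL3-RIP median of the table. Sox6 alone, 1 member (2.56%), was listed at 0 in any input library, against 655 listed genes (24.7%) and 232 listed coding genes (12.2%).

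**Figure D2:**
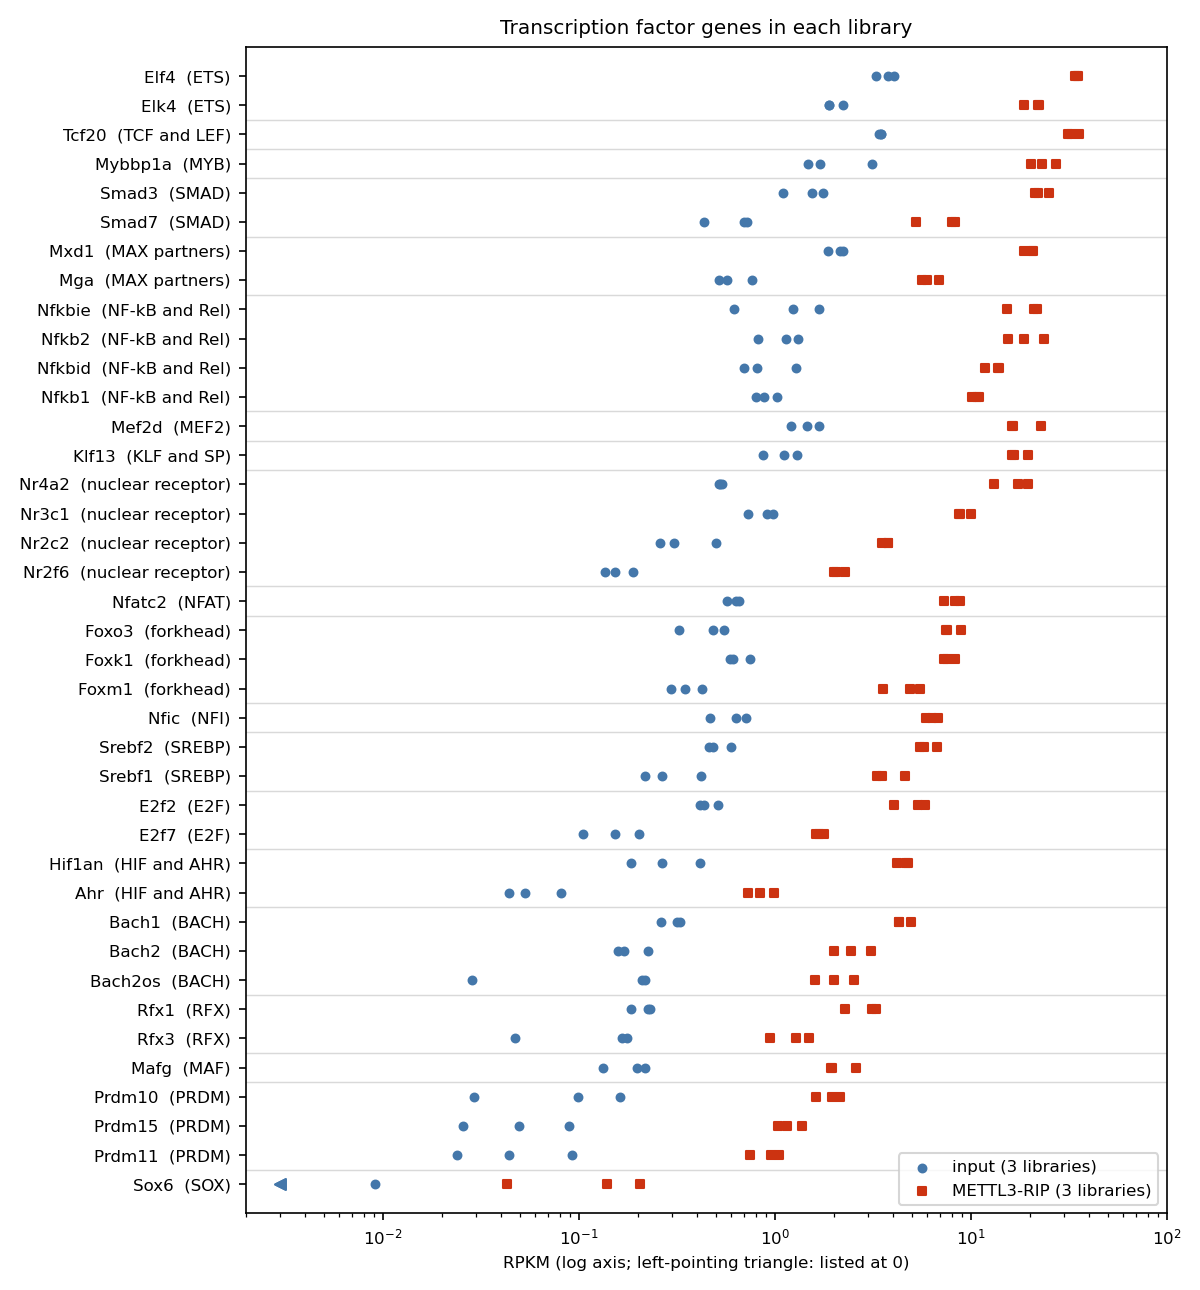
RPKM of the 39 members in each of the 3 METTL3-RIP libraries (red squares) and 3 input libraries (blue circles) on a log axis, grouped by family and ordered by the highest level in a family. The squares lie to the right of the circles in every row, from Elf4 at 34.1, 35.4 and 34.9 RPKM down to Sox6, whose left-pointing triangle stands for 2 input libraries listed at 0.

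The ETS gene Elf4, which encodes a factor that restrains proliferation and is needed for normal NK cell development, had the highest level of the members. Its values were 34.1, 35.4 and 34.9 RPKM in METTL3-RIP against 4.07, 3.77 and 3.29 RPKM in input (9.37-fold between the means). The METTL3-RIP libraries differed little, with a coefficient of variation of 1.93%, the smallest among the members. Elk4, an ETS factor that joins serum response factor at immediate-early genes, had 22.05, 22.4 and 18.7 RPKM in METTL3-RIP against 2.22, 1.88 and 1.89 RPKM in input (10.5-fold). Both ETS genes were thus well expressed in input and sat near the lower end of the folds in the table, whose smallest was 9.14.

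Genes that act with or against Myc and at the cell cycle spanned a wide range of levels. Mxd1 encodes a MAX partner that opposes Myc, and had 20.6, 20.8 and 18.8 RPKM in METTL3-RIP against 2.22, 2.17 and 1.86 RPKM in input (9.63-fold). Mga, a larger MAX partner within a repressive Polycomb complex, was at 5.998, 6.91 and 5.67 RPKM in METTL3-RIP against 0.574, 0.762 and 0.523 RPKM in input (9.997-fold). Both folds were below the median of the members. Mybbp1a had 27.2, 23.2 and 20.3 RPKM in METTL3-RIP against 3.12, 1.48 and 1.699 RPKM in input (11.2-fold), with input replicate 1 above the other input libraries. E2f2, an activator of S-phase genes, averaged 5.12 ± 0.935 RPKM in METTL3-RIP and 0.455 ± 0.0496 RPKM in input (SD, n = 3). E2f7, an atypical E2F that represses them, gave 1.79, 1.62 and 1.68 RPKM in METTL3-RIP against 0.204, 0.153 and 0.106 RPKM in input (11.01-fold).

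The NF-κB pathway contributed subunits and inhibitors. Nfkb1 encodes p105, the precursor of p50, and had 10.2, 10.96 and 10.8 RPKM in METTL3-RIP against 1.03, 0.804 and 0.879 RPKM in input (11.8-fold). Nfkb2 encodes p100, precursor of p52 in the noncanonical branch, with 18.7, 23.7 and 15.5 RPKM in METTL3-RIP against 0.819, 1.31 and 1.14 RPKM in input (17.7-fold). Nfkb1 was even over its METTL3-RIP libraries, whereas Nfkb2 was lowest in METTL3-RIP replicate 3 and highest in replicate 2. Among the inhibitors, Nfkbie (IκBε, which holds Rel dimers in the cytoplasm) had 20.9, 21.9 and 15.2 RPKM in METTL3-RIP against 1.25, 1.68 and 0.617 RPKM in input (16.4-fold). Nfkbid (a nuclear IκB that modulates p50) had 13.9, 13.8 and 11.8 RPKM in METTL3-RIP against 0.812, 1.28 and 0.695 RPKM in input (14.2-fold). The input values of Nfkbie spread widely, with a coefficient of variation of 45.2%, so its place relative to Nfkb2 is within the error of both. Exons of Nfkb2 lie under a gene on the other strand for 18.1% of their bases. No source says whether counting used strand, and the part of that gene in the value was not tested.

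Factors of calcium and mitogen signalling were at similar folds. Nfatc2, the calcineurin-dependent factor NFAT1, had 8.296, 8.78 and 7.3 RPKM in METTL3-RIP against 0.571, 0.638 and 0.655 RPKM in input (13.1-fold). Mef2d, a MADS-box factor that answers to calcium and MAP kinases, had 16.4, 22.7 and 16.3 RPKM in METTL3-RIP against 1.47, 1.69 and 1.22 RPKM in input (12.7-fold). Nfatc2 was the more even of the pair, and Mef2d stood higher in METTL3-RIP replicate 2 than in the other METTL3-RIP libraries. Mef2d shares 8.87% of its exon bases with a gene on the other strand.

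The TGF-β pathway, which dampens NK cell function, was represented by a receptor-activated SMAD and by the inhibitor of the pathway. Smad3, the DNA-binding effector, had 22.1, 25.2 and 21.3 RPKM in METTL3-RIP against 1.55, 1.77 and 1.104 RPKM in input (15.5-fold). Smad7, which promotes receptor turnover, had 8.05, 8.31 and 5.28 RPKM in METTL3-RIP against 0.697, 0.719 and 0.436 RPKM in input (11.7-fold). Smad3 was at about the level of Mybbp1a and Elk4 in METTL3-RIP, with overlapping library values, and Smad7 was lower throughout, with METTL3-RIP replicate 3 below replicates 1 and 2. Of the forkhead factors, Foxo3, which is held in the cytoplasm by AKT and promotes quiescence and cell death genes, had 7.59, 8.89 and 7.48 RPKM in METTL3-RIP against 0.486, 0.553 and 0.323 RPKM in input (17.6-fold). Foxm1, a driver of mitotic genes, had 4.92, 5.496 and 3.59 RPKM in METTL3-RIP against 0.297, 0.348 and 0.425 RPKM in input (13.1-fold). Foxk1, a repressor of autophagy and starvation genes, averaged 7.74 ± 0.514 RPKM in METTL3-RIP and 0.649 ± 0.0836 RPKM in input (SD, n = 3). In METTL3-RIP, Foxo3 and Foxk1 overlapped in level while Foxm1 was lower in every library.

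The nuclear receptors held the largest fold among members with signal in every input library. Nr4a2 (Nurr1), an orphan receptor induced early after stimulation, had 17.5, 19.6 and 13.2 RPKM in METTL3-RIP against 0.518, 0.524 and 0.536 RPKM in input (31.9-fold). Its input was the second most even of the members over the libraries (coefficient of variation 1.76%) and rested on 32 to 34 reads per library. Such evenness over 3 libraries is no measure of the counting error of so few reads. METTL3-RIP replicate 3 was below replicates 1 and 2. The gene is at chr2:57106830-57124003 on the minus strand of GRCm38, has 4059 nt of exon and no exon overlap with another gene. Nr3c1, the glucocorticoid receptor, had 8.68, 8.798 and 10.01 RPKM in METTL3-RIP against 0.911, 0.977 and 0.732 RPKM in input (10.5-fold). Nr2c2 (TR4) had 3.803, 3.52 and 3.76 RPKM in METTL3-RIP against 0.259, 0.502 and 0.305 RPKM in input (10.4-fold). Nr2f6, which restrains cytokine transcription in T cells, averaged 2.12 ± 0.143 RPKM in METTL3-RIP and 0.1598 ± 0.0264 RPKM in input (SD, n = 3). Nr2f6 and Nr2c2 share 54.4% and 31.2% of their exon bases with genes on the other strand, and their values carry the same uncertainty as that of Nfkb2. Both members of the HIF and AHR group were lower than Nr4a2 and Nr3c1. Ahr, the aryl hydrocarbon receptor, had 0.846, 0.996 and 0.728 RPKM in METTL3-RIP against 0.0533, 0.0812 and 0.0441 RPKM in input (14.4-fold), on 4 to 8 reads in an input library. Hif1an had 4.702, 4.803 and 4.204 RPKM in METTL3-RIP against 0.418, 0.265 and 0.185 RPKM in input (15.8-fold).

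Klf13, a zinc finger factor of the KLF family that drives late expression of the chemokine RANTES in lymphocytes, had 16.6, 19.5 and 16.3 RPKM in METTL3-RIP against 1.299, 1.11 and 0.876 RPKM in input (15.96-fold). Tcf20 was second only to Elf4 in level, with 32.4, 35.8 and 31.4 RPKM in METTL3-RIP against 3.48, 3.47 and 3.42 RPKM in input (9.59-fold), and the METTL3-RIP values of both genes overlapped. Nfic, a nuclear factor I gene, had 6.38, 6.81 and 5.896 RPKM in METTL3-RIP against 0.714, 0.632 and 0.468 RPKM in input (10.5-fold). Both sterol regulatory factors were listed. Srebf1, which drives fatty acid synthesis genes, averaged 3.83 ± 0.684 RPKM in METTL3-RIP and 0.301 ± 0.106 RPKM in input (SD, n = 3). Srebf2, which drives cholesterol synthesis genes, averaged 5.996 ± 0.618 RPKM in METTL3-RIP and 0.517 ± 0.0726 RPKM in input (SD, n = 3). In METTL3-RIP every library of Srebf2 was above every library of Srebf1.

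The remaining families lay in the lower part of the range. Bach2, a repressor that limits effector maturation of lymphocytes, had 2.45, 3.09 and 2.002 RPKM in METTL3-RIP against 0.159, 0.1698 and 0.226 RPKM in input (13.6-fold), and 5.402% of its exon bases lie under a gene on the other strand. The antisense Bach2os had 1.61, 2.53 and 2.02 RPKM in METTL3-RIP against 0.211, 0.0286 and 0.218 RPKM in input (13.5-fold), and its input rested on 7, 1 and 7 reads. Exons of Bach2os lie under a gene on the opposite strand for 24.6% of their bases. Bach2os (chr4:32559680-32571708, minus strand) lies within the span of Bach2 (chr4:32238804-32586108, plus strand). Bach2 and Bach2os are therefore not read as independent members, and the part of either gene in the value of the other was not tested. Bach1, the haem-regulated relative of Bach2, had 4.96, 4.29 and 4.32 RPKM in METTL3-RIP against 0.319, 0.263 and 0.33 RPKM in input (14.9-fold), and 13.8% of its exonic 31-base words also occur elsewhere in the genome, the largest share among the members. Mafg, a small MAF that pairs with BACH proteins, averaged 2.16 ± 0.374 RPKM in METTL3-RIP and 0.184 ± 0.0442 RPKM in input (SD, n = 3).

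Both RFX genes, which act at X-box promoters, differed in level. Rfx1 averaged 2.91 ± 0.543 RPKM in METTL3-RIP and 0.214 ± 0.0256 RPKM in input (SD, n = 3). Rfx3 had 0.945, 1.499 and 1.29 RPKM in METTL3-RIP against 0.0476, 0.176 and 0.166 RPKM in input (9.58-fold), with both METTL3-RIP and input lowest in replicate 1. The PRDM genes, whose proteins share a PR domain, had thin inputs. Prdm10 had 2.15, 1.95 and 1.63 RPKM in METTL3-RIP against 0.0993, 0.162 and 0.0294 RPKM in input (19.7-fold). For Prdm15 the values were 1.16, 1.38 and 1.04 RPKM in METTL3-RIP against 0.0498, 0.0889 and 0.0258 RPKM in input (21.8-fold). Prdm11 had the lowest level of the group, with 0.955, 1.05 and 0.745 RPKM in METTL3-RIP against 0.0925, 0.04402 and 0.0239 RPKM in input (17.1-fold). In all 3 PRDM genes input replicate 3 was the lowest, at 4 reads in Prdm10 and 6 in Prdm11, and the errors of their folds are wide. Sox6, an HMG-box factor known from erythroid, cartilage and nerve cells, was the lowest member, with 0.04303, 0.1403 and 0.206 RPKM in METTL3-RIP and 0, 0 and 0.00917 RPKM in input. This rests on 6, 20 and 36 reads in METTL3-RIP against 0, 0 and 2 in input, a ratio of reads per library total of 46.2 with an exact 95% interval from 12.3 to 389.9 that covers counting error alone. The 3 METTL3-RIP libraries differed more for Sox6 than for any other member (coefficient of variation 63.1%).

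**Figure D3:**
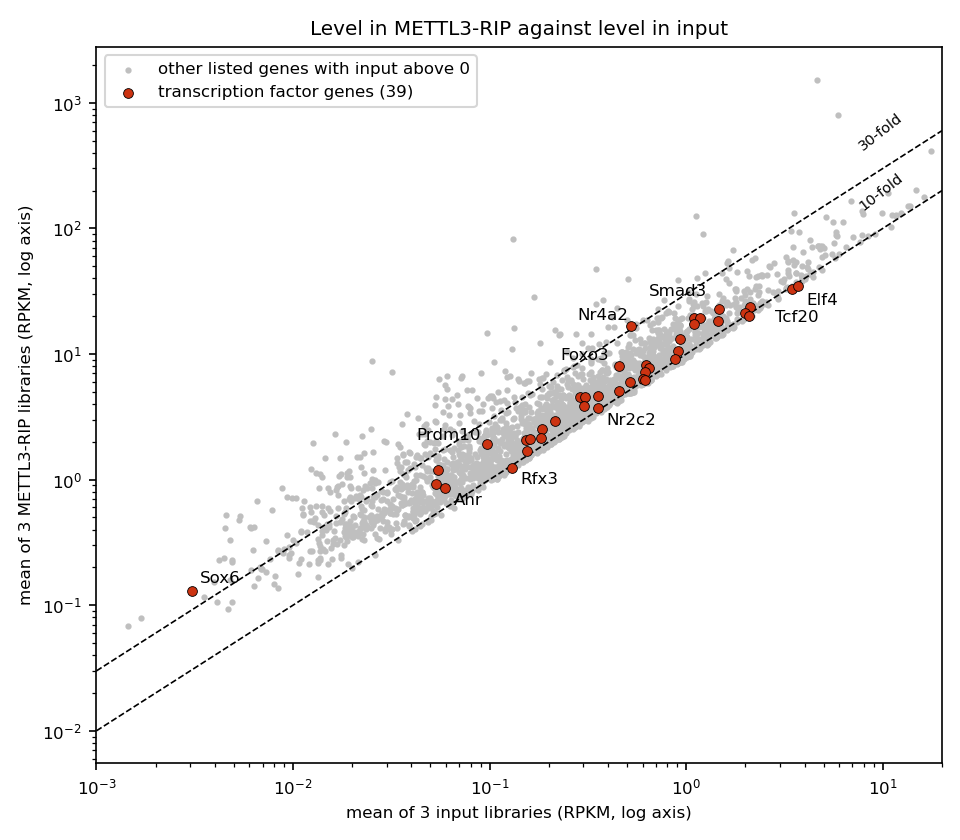
Mean RPKM of the 3 METTL3-RIP libraries against mean RPKM of the 3 input libraries, both on log axes, for the 39 members (red) and the other listed genes with input above 0 (grey), with dashed lines at 10-fold and 30-fold. Most members lie near or above the 10-fold line, along the lower edge of the grey cloud at high levels (Elf4, Tcf20), and Nr4a2 lies above the 30-fold line.

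To compare the members with the library medians of the listed genes, log2(RPKM + 0.02) was centred in each library on its median over the 2652 listed genes. METTL3-RIP was then compared with input by limma with Benjamini-Hochberg adjustment over all 2652 genes. On this scale 0 is the gap between the library medians of METTL3-RIP and input, higher and lower are meant relative to 0, and a negative value does not mean lower in METTL3-RIP than in input. The median difference was -0.30 over the members, -0.17 over all listed genes and -0.32 over listed coding genes, so the median of the members was close to that of listed coding genes. Below 0 lay 76.9% of the members, 60.2% of all listed genes and 71.7% of listed coding genes. A call as lower is thus against 0 and not against the typical listed coding gene. Past the threshold, 1 of 39 members (2.56%) was higher, against 141 of 2652 listed genes (5.32%), and 4 of 39 (10.3%) were lower, against 128 of 2652 (4.83%). With counts this small, neither share is read as a property of the set.

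Nr4a2 was the member that passed as higher. Its centred log2 values were 2.47, 2.61 and 2.26 over the METTL3-RIP libraries against 1.27, 1.35 and 1.59 over the input libraries, a difference of 1.04 (SE 0.14, limma adjusted p = 0.0102), and it ranked 319 of 2652. The difference stayed between 0.94 and 1.76 under the alternative pseudocounts, filters, centrings, tests and left-out libraries. Its limma adjusted p ran from 4.14e-06 to 0.0687 over them, and missed the threshold in 2 of them, with the replicate number as a block (0.0687) and without METTL3-RIP replicate 1 (0.055). The 4 lower members were Elf4 with -0.66 (SE 0.09, limma adjusted p = 0.0118), Tcf20 with -0.63 (SE 0.10, limma adjusted p = 0.0171), Mxd1 with -0.62 (SE 0.08, limma adjusted p = 0.00877) and Elk4 with -0.50 (SE 0.10, limma adjusted p = 0.0266). In Mxd1, for example, the centred values were 2.71, 2.69 and 2.77 over the METTL3-RIP libraries against 3.33, 3.35 and 3.36 over the input libraries. These 4 are among the 5 members with the highest input, and their small errors go with input of 178 or more reads in each library. Their direction turned with the pseudocount, and at a pseudocount of 1 RPKM, which shrinks genes of low level, the centred differences were 1.17 (Elf4), 1.18 (Tcf20), 1.01 (Mxd1) and 1.12 (Elk4). None of the 4 passed as lower with a pseudocount of 0.1 (limma adjusted p 0.0957 to 0.418), without the trend in the prior variance (0.064 to 0.0979), with the replicate number as a block (0.0687 to 0.0995) or without METTL3-RIP replicate 1 (0.052 to 0.102). Tcf20 and Elk4 also missed the threshold without either of the other METTL3-RIP libraries, Elf4 without METTL3-RIP replicate 2 and Elk4 with limma voom on recovered reads.

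**Figure D4:**
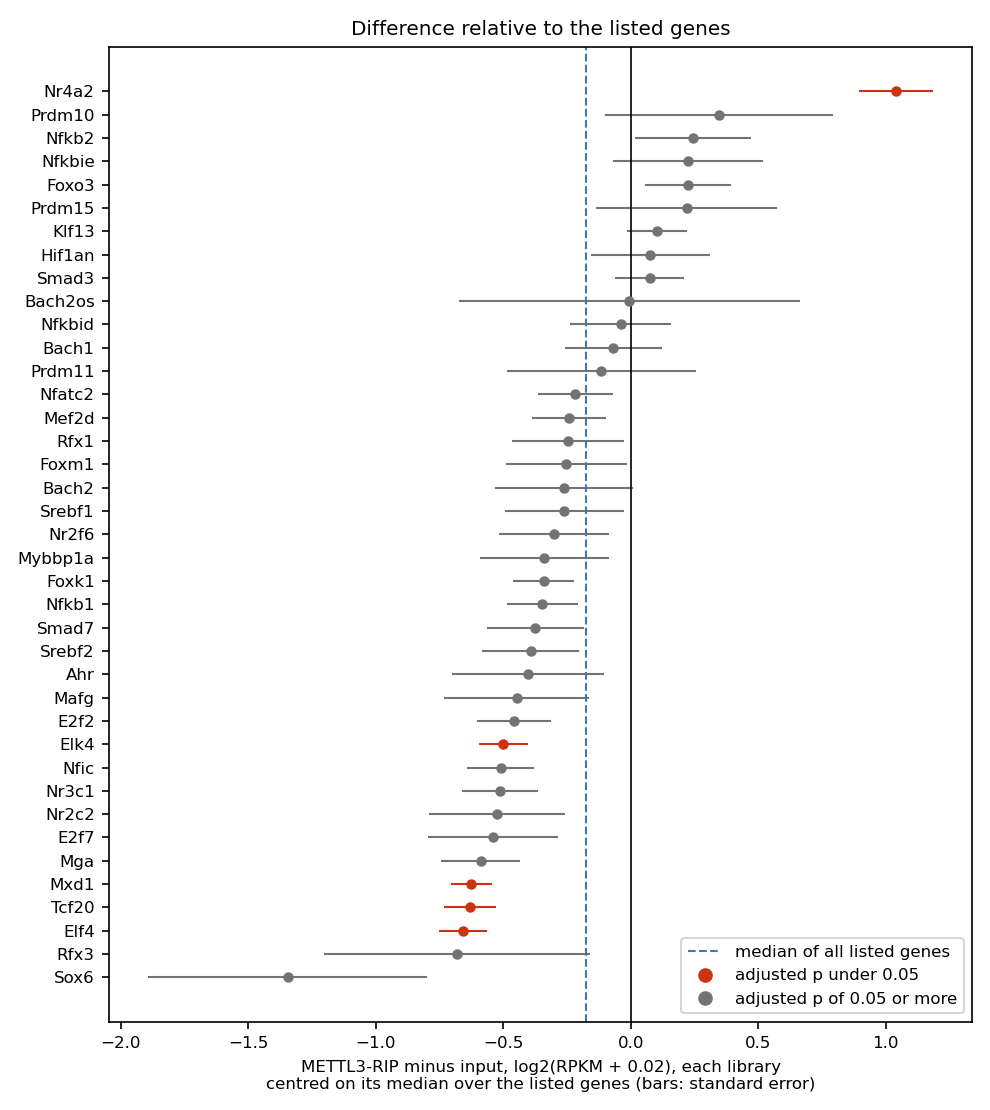
Difference between METTL3-RIP and input for each of the 39 members on the log2(RPKM + 0.02) scale after centring each library on its median over the listed genes, with standard errors as bars, members past an adjusted p of 0.05 in red and the median of all listed genes (-0.17) as a dashed line. Nr4a2 stands alone at the top with 1.04, and the red points of Elk4, Mxd1, Tcf20 and Elf4 lie between -0.50 and -0.66.

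The other 34 members did not pass the test in either direction. Those with the next largest differences were Prdm10 (0.35, SE 0.45), Nfkb2 (0.24, SE 0.23), Nfkbie (0.23, SE 0.29), Foxo3 (0.22, SE 0.17) and Prdm15 (0.22, SE 0.36), with errors that reach the values of Klf13 (0.10, SE 0.12), Hif1an (0.08, SE 0.23) and Smad3 (0.07, SE 0.14). Bach2os followed at -0.01 (SE 0.67). At the low end, Rfx3 (-0.68, SE 0.52) and Sox6 (-1.35, SE 0.55) had the lowest values and wide errors. The value for Sox6 depends on the transformation, and limma voom on the recovered reads gave it a centred difference of 1.18. Mga (-0.59, SE 0.16, limma adjusted p = 0.0613) and Nfic (-0.51, SE 0.13, limma adjusted p = 0.0577) missed the threshold narrowly, and E2f7, Nr2c2 and Nr3c1 lay at -0.54, -0.52 and -0.51. In the NF-κB group the precursor genes lay apart, with Nfkb1 at -0.35 (SE 0.14) and Nfkb2 at 0.24 (SE 0.23), a gap that was not tested.

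A list of 74 transcription factors with roles in NK cells had 16 genes in the table (21.6%), of which 13 were members (Bach2, Foxo3, Foxm1, Elf4, Klf13, Nfkb1, Nfkb2, Smad3, Ahr, Nr4a2, Nfatc2, Mef2d and Mga). Of all coding genes 8.69% were listed, and 23.4% of those in the longest length class. The list was chosen with earlier results of these data known, so its share is not read as enrichment. All 16 passed the test on the deposited scaling, as every listed gene did. On the centred scale 1 of the 16 passed as higher (Nr4a2) and 1 as lower (Elf4), beside 5.32% and 4.83% of all listed genes, and the median of the 16 was -0.25. Outside the members, Stat3, which carries signals of IL-10 and IL-21, averaged 11.9 ± 1.91 RPKM in METTL3-RIP and 1.03 ± 0.125 RPKM in input (11.6-fold) (SD, n = 3). Stat5a, which carries those of IL-2 and IL-15, averaged 2.098 ± 0.0695 RPKM in METTL3-RIP and 0.172 ± 0.06003 RPKM in input (12.2-fold) (SD, n = 3). Bcl11b, a zinc finger factor of T cells and some NK cells, averaged 1.599 ± 0.368 RPKM in METTL3-RIP and 0.0912 ± 0.00678 RPKM in input (17.5-fold). These folds lay within the range of the members.

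Partners and coregulators of the factors had 21 of 44 genes in the table (47.7%), 1 of them the member Nfkbie. Beside it, 8.69% of all coding genes and 23.4% of those in the longest length class were listed. This list too was chosen with earlier results known, and its share is not read as enrichment. Crebbp and Ep300 encode acetyltransferases that serve NF-κB, SMAD and FOXO proteins as coactivators. Crebbp averaged 26.2 ± 0.444 RPKM in METTL3-RIP and 1.53 ± 0.173 RPKM in input (17.1-fold) (SD, n = 3). For Ep300 the means were 16.7 ± 1.68 RPKM in METTL3-RIP and 0.894 ± 0.156 RPKM in input (18.7-fold) (SD, n = 3). Rxra, the retinoid X receptor that pairs with many nuclear receptors, was at 4.42 ± 0.279 RPKM in METTL3-RIP and 0.3903 ± 0.0814 RPKM in input (11.3-fold). Ski, a repressor of SMAD complexes, had 23.4-fold more in METTL3-RIP and its relative Skil 9.15-fold. On the centred scale 1 of the 21 passed as higher and 2 as lower, beside 5.32% and 4.83% of all listed genes. Med13l, of the Mediator kinase module, was the higher one, with 5.58, 6.71 and 5.19 RPKM in METTL3-RIP against 0.179, 0.1702 and 0.106 RPKM in input (1.23 on the centred log2 scale, SE 0.19, limma adjusted p = 0.0146). Ctnnb1, which encodes β-catenin, and Tle3, a Groucho corepressor, were the lower ones at -0.61 (limma adjusted p = 0.0213) and -0.59 (limma adjusted p = 0.0224). Each of these 3 missed the threshold without any 1 of the METTL3-RIP libraries and with the replicate number as a block. Ctnnb1 and Tle3 also missed it with a pseudocount of 0.1 (limma adjusted p 0.127 and 0.184). The same held without the trend in the prior variance (limma adjusted p 0.0754 and 0.0837), and for Ctnnb1 with limma voom (adjusted p 0.0618). At a pseudocount of 1 RPKM Ctnnb1 and Tle3 turned to 0.73 and 1.05.

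The members kept their order over the libraries. Over the 39 genes, log2(RPKM + 0.02) correlated between METTL3-RIP libraries with Pearson's r from 0.981 to 0.9903 and between input libraries from 0.923 to 0.947, which is across genes and not across independent samples. Replicate 2 held the highest METTL3-RIP value in 30 of 39 members and replicate 3 the lowest in 28. The medians of all listed genes were ordered the same way, at 3.196 RPKM in replicate 2, 3.13 in replicate 1 and 2.74 in replicate 3. The 5 members with the largest spread over the METTL3-RIP libraries were Sox6 (63.1%), Smad7 (23.2%), Rfx3 (22.5%), Bach2os (22.4%) and Bach2 (21.7%). The median coefficient of variation was 10.3% in METTL3-RIP and 20.7% in input over the members. Over all listed genes it was 15.5% and 33.3%, and over the listed coding genes, which are closer in kind, 13.3% and 27.6%. The members thus varied less than the table as a whole, and lay at higher levels.

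Over the members, input and METTL3-RIP levels moved together (Spearman's rho 0.981, n = 39 genes that share the same libraries). At the pseudocount of 0.02 RPKM the centred difference moved little with either level (rho -0.0692 with input and 0.0543 with METTL3-RIP). At a pseudocount of 1 RPKM, Elf4 and Tcf20, with the highest input, were at 1.17 and 1.18. Sox6 and Prdm11, with the lowest input, were at -1.59 and -0.90. The rho was computed only at 0.02 RPKM and is not read as independence from level. Transcript features moved weakly with the centred difference, as descriptions across genes. Spearman's correlation was -0.338 with exon length, -0.362 with the longest exon, -0.259 with 3′ UTR length, 0.329 with GC content of the transcript and 0.152 with copies of GGACT per kb (n = 38 or 39 genes). It was 0.344 with copies per kb of GGACN with any last base but G, a wider set that contains GGACT, searched on the transcribed strand, of which at least 1 is in 97.9% of the transcripts of all coding genes. Without input replicate 2 these fell in size to -0.126 for exon length, -0.245 for the longest exon, -0.133 for 3′ UTR length, 0.136 for GC content, 0.0898 for GGACT and 0.207 for the wider set. The correlation with GGACT changed sign with a pseudocount of 1 in place of 0.02 RPKM, to -0.0664. Nr4a2, at the top, had a 3′ UTR of 1329 nt and 0.2803 copies of GGACT per kb, and Elf4, near the bottom, had 3620 nt and 1.31. For the wider set the order was the other way, with 4.20 copies per kb in Nr4a2 and 3.45 in Elf4.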

How the data were processed

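Per the methods of the study, sorted splenic NK cells were lysed, RNA of a small aliquot served as input, and METTL3 was pulled down from the remaining lysate. The authors trimmed reads of stranded libraries and mapped them to GRCm38 with STAR (version 2.5.3a). How reads were counted, on which annotation and with which strand setting, is not given in the sources used here. The authors deposited 1 gene table, whose 6 columns of per-library values carry no stated unit. They were taken as RPKM computed by the authors, because multiplying them by the exon length of a gene in GENCODE M21 and by a library total gave whole reads (within 0.02) for 83.4% to 84.8% of the values of a library. Its columns of log2 fold change and p-value hold the authors' own comparison and were not used.

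Samples were grouped by their titles. Values were transformed to log2(RPKM + 0.02) and tested with limma (version 3.58.1, R 4.3.3; lmFit, then eBayes with trend, two-sided p-values, Benjamini-Hochberg adjustment over all 2652 genes, threshold 0.05), as deposited and after centring each library on its median over the listed genes. Exact permutation of 3 and 3 libraries has a smallest two-sided p of 0.1 and was not used. The script was tested on simulated data, in which the spreads of the genes were shuffled. There the centred test called 28% of genes with a log2 difference of 1 and 42% at -1. It called 74% at 2, 60% at -2 and 0.245% at 0, so a gene that does not pass may still differ. Library totals and read numbers were recovered from the values. GENCODE M21 (GRCm38) gave coordinates, lengths and overlaps.

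The members, families, gene lists, tests and alternatives were chosen with earlier results of these data known. Values in every library are given for the 10 members with the highest METTL3-RIP level, the 10 with the largest and the 10 with the smallest centred difference, members of the NK cell list, members at 0 in an input library and the 5 most variable members. Other members may be given with group means. Alternatives were pseudocounts of 0.1 and 1, a filter at 1 RPKM, the replicate number as a block, no trend, centring on the mean, limma voom on recovered reads and leaving out each library.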

Additional observations from a re-analysis of the deposited data

How the results depend on the processing

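On the deposited scaling all members tested passed under each alternative, with 33 members and 1671 listed genes once a mean of at least 1 RPKM was asked for. On the centred scale, 1 member was higher and 4 were lower, and 141 listed genes were higher and 128 lower. In the same order (higher and lower), the alternatives gave 2 and 4 members and 297 and 528 listed genes with a pseudocount of 0.1, 25 and 10 members and 1044 and 1119 listed genes with a pseudocount of 1, 1 and 6 members and 122 and 168 listed genes with the filter, 1 and 0 members and 97 and 12 listed genes without the trend in the prior variance, 1 and 7 members and 138 and 271 listed genes with centring on the mean and 1 and 3 members and 236 and 58 listed genes with limma voom on recovered reads. The 4 lower members with a pseudocount of 0.1 were Ahr, E2f7, Prdm11 and Sox6, so 0 of the 4 called with 0.02 were among them, and with a pseudocount of 1 it was 0 of 10. All 4 were among those with the filter and with centring on the mean, and 3 of them were the lower members with limma voom. Nr4a2 was among the higher members under each of these alternatives. Leaving out 1 library at a time gave 0 to 1 higher and 0 to 5 lower members, 63 to 193 higher and 3 to 158 lower listed genes, and 2643 to 2649 listed genes on the deposited scaling. The lowest counts of members, 0 and 0, came without METTL3-RIP replicate 1, and without replicates 2 and 3 of METTL3-RIP 1 and 2 members stayed lower, whereas leaving out an input library kept all 5 calls. The members' median minus that of all listed genes was -0.13, and became 0.077 and 0.48 with pseudocounts of 0.1 and 1 and -0.22 with limma voom, so its sign depends on the pseudocount. Left-out libraries gave -0.18 to -0.091.

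Replicate numbers in the titles were used as a block in an alternative fit. They were not taken as a pairing, since no source ties the numbers to a shared lysate and the deviations of same-numbered libraries from their group means correlated at -0.0236, -0.0225 and -0.002296. No METTL3-RIP library correlated best with the input of its own number. With the replicate block, 0 and 0 members and 40 and 2 listed genes passed as higher and lower, and the members' median did not move.

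Single genes changed sign as follows on the centred log2 scale, where 0 is the gap between the library medians and the median listed gene lies at -0.17, so that Prdm11, Bach1, Nfkbid and Bach2os were above that median gene before the change too. With a pseudocount of 1 the values were Prdm15 -0.71, Prdm10 -0.35, Bach1 0.32, Nfkbid 1.13, Nfatc2 0.73, Foxm1 0.29, Srebf1 0.13, Mef2d 1.21, Foxk1 0.65, Nfkb1 0.85, Srebf2 0.44, Smad7 0.57, Mybbp1a 1.25, E2f2 0.30, Nr3c1 0.68, Nfic 0.44, Elk4 1.12, Nr2c2 0.036, Mga 0.39, Mxd1 1.01, Tcf20 1.18, Elf4 1.17, Ctnnb1 0.73 and Tle3 1.05. A pseudocount of 0.1 gave Prdm15 -0.37, Prdm10 -0.043, Bach1 0.072, Nfkbid 0.28, Nfatc2 0.064, Mef2d 0.12 and Mybbp1a 0.044. Centring on the mean gave Hif1an -0.022 and Smad3 -0.024, and limma voom gave Sox6 1.18, Prdm11 0.43, Bach1 0.088, Nfkbid 0.049 and Bach2os 0.18. The cause of these changes was not tested. Over the left-out libraries the values ran from -0.0096 to 0.51 in Prdm15, from -0.10 to 0.74 in Prdm10, from -0.35 to 0.19 in Prdm11, from -0.094 to 0.50 in Nfkbie, from -0.10 to 0.31 in Hif1an, from -0.037 to 0.19 in Smad3, from -0.19 to 0.071 in Bach1, from -0.16 to 0.19 in Nfkbid and from -0.79 to 0.46 in Bach2os, and no other named gene changed sign. Members had a median of 33 to 48 reads in an input library.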
